A study of Mus musculus with 6 samples.

Results

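Bone marrow grown in GM-CSF, a growth factor of myeloid cells, gives several cell populations in a single dish, and the 2 arrays of cells sorted as dendritic cells (GM-BMDC) were set here against the 2 arrays of cells sorted as macrophages (GM-BMM). These were 4 of the 6 arrays of the series, taken by their titles. Marrow came from C57BL/6J mice labelled male and 6 to 10 weeks old, and was kept for 7 days with 25 ng/ml of GM-CSF for both populations, so the gate is the labelled difference between them. GM-BMDC were the MHCIIhighF4/80low gate and GM-BMM the MHCIIlowF4/80high gate, where MHCII is the antigen-presenting molecule MHC class II and F4/80 a macrophage surface protein. The 2 other arrays, M-BMM, were CD11b+F4/80+ macrophages grown with 20% L cell conditioned medium, which supplies M-CSF. They entered the fit for the spread between replicates, and their levels are given beside those of the GM-CSF cells. No group carried a transgene or a deletion. Each array received 300 ng of total RNA of 1 biological replicate. The sources used here do not say whether a replicate was 1 animal, a pool or a separate culture, and p-values cover only how far the arrays of a group differ.

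Dendritic cells take up antigen, mature, travel to lymph nodes and show the antigen to T cells, which asks for a mobile cell body, contact molecules and presentation. Macrophages stay in tissue, engulf particles and dying cells, digest them and secrete inflammatory mediators. GM-CSF drives precursors of both in culture, and the sort on class II and F4/80 parts them. The account below runs over all genes, and describes groups by function: the cytoskeleton, surface receptors, signalling, transcription factors, metabolism, transport, protein handling, secreted products and microRNAs.

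All values are log2 signals, on which 1 unit is a 2-fold change. A fold is followed in brackets by the log2 difference, GM-BMDC minus GM-BMM, with its standard error from limma (n = 2 arrays in each population). A gene was called higher or lower when limma's Benjamini-Hochberg adjusted p was under 0.05. A called gene was stable when it stayed called, in the same direction and within 1.5 times its log2 difference, in each fit that left out 1 array or both GM-CSF arrays of one number, in the fit of only the 4 GM-CSF arrays, and with the replicate number as a block. Its GM-BMDC and GM-BMM arrays also had to be without overlap. Single genes named below as higher or lower are stable unless the text says otherwise. The files mark no background, so levels below 5.04, where the lowest 25% of all values lie, are termed low, and may be no more than background. The cells were measured in bulk, so fewer cells of a type and less RNA per cell cannot be told apart.

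The genes of the gate followed the sort. H2-Aa, H2-Ab1 and H2-Eb1, the chains of MHC class II, were 4.63-fold (2.21 ± 0.33), 5.49-fold (2.46 ± 0.36) and 6.14-fold (2.62 ± 0.37) higher in GM-BMDC, and Adgre1, which encodes F4/80, was 4.97-fold (-2.31 ± 0.42) lower. Both GM-BMDC arrays were alike in H2-Ab1 (13.09 and 13.17), whereas GM-BMM measured 10.08 and 11.27. For Adgre1 the GM-BMDC arrays lay apart, at 9.39 and 10.91, below both GM-BMM arrays at 12.32 and 12.61, and its call ended without GM-BMM replicate 2 or without either M-BMM array. The sort set these 4 directions. Xist and the Y-linked genes did not follow the male label: Xist, the RNA of the silenced X chromosome, measured 11.66 and 10.68 in GM-BMDC, 11.58 and 4.93 in GM-BMM and 4.53 and 4.80 in M-BMM. Eif2s3y, a Y-linked gene, measured 3.94 and 8.80, 3.66 and 9.10, and 9.32 and 9.17 in the same order, and Uty and Kdm5d split the arrays as it did. Both first replicates of the GM-CSF cells thus carried Xist without Y-linked RNA, and the second GM-BMDC array carried both. The counts over all genes below are therefore also given from a fit that took in the level of Y-linked genes, but not of Xist.

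Marker lists, written with earlier results of these arrays known, were set beside the labelled types. The dendritic cell list had 13 of its 15 genes higher and 0 lower, and 7 of the 13 calls were stable. It averaged 9.38 and 9.36 in GM-BMDC, 7.46 and 7.23 in GM-BMM and 6.51 and 6.47 in M-BMM. Flt3, the receptor of a dendritic cell growth factor, was 3.94-fold higher and Batf3, a transcription factor of cross-presenting dendritic cells, 2.64-fold. Clec9a (6.82 and 6.97 against 7.77 and 7.04) and Xcr1 (5.55 and 5.58 against 5.49 and 5.22), markers of the cross-presenting subset, did not pass. Of 14 macrophage genes, 5 were lower and 0 higher, and 2 of the 5 calls were stable. Adgre1, a gene of the gate, is among the 5, and the sort set its direction. Cd14, a coreceptor for bacterial lipopolysaccharide, was 3.63-fold lower, while C1qb, a complement gene of tissue macrophages, Mertk and Csf1r did not pass. The dendritic cell counts were 11 higher and 1 lower without GM-BMM replicate 2, and the macrophage counts 1 and 5 without GM-BMM replicate 1.

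Markers of other cell types moved with the comparison in places. Of 9 B lymphocyte genes, 3 were higher in GM-BMDC: Cd79a (7.15 and 6.23 against 3.99 and 4.49), Ms4a1 (6.87 and 6.14 against 4.91 and 4.66) and Ebf1, whose call was not stable, all from low GM-BMM levels. A run of 4 neighbouring immunoglobulin kappa variable genes (Igkv) was called higher as well, by log2 differences from 0.80 to 2.04, none stable. Vpreb1, Vpreb3, Igll1, Pax5, Blnk and Cd79b did not pass, and the list averaged 6.88 and 6.33 against 5.89 and 6.06. Without GM-BMDC replicate 2 the count was 5. The part of such cells in the results was not tested. Kit, a mast cell and progenitor receptor, was 3.40-fold (1.77) higher, with 5 of 11 mast cell and basophil genes, Fcer1a and Ms4a2 among them, low on all 4 GM-CSF arrays. GM-BMM replicate 1 held more RNA of granulocyte genes than GM-BMM replicate 2. The neutrophil list averaged 6.88 against 6.27 and the eosinophil list 6.43 against 5.49, beside 6.21 and 6.29, and 6.00 and 6.23, in GM-BMDC. The neutrophil count was 1 gene lower, 5 without GM-BMM replicate 2 and 0 without GM-BMDC replicate 1, GM-BMM replicate 1 or either M-BMM array. Of 8 monocyte genes 2 were lower, or 4 with 1 higher without GM-BMM replicate 1. Of 10 osteoclast genes 2 were higher (Dcstamp, 6.07-fold, and Ocstamp, 3.95-fold, both needed for cell fusion) and 3 lower (Acp5, Ctsk and Mmp9). T and NK, plasmacytoid, platelet, stromal and endothelial lists had 0 or 1 member called in each direction, and the erythroid list 0. Without GM-BMM replicate 2 the platelet and endothelial lists each had 3 lower.

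Of 19938 genes, 935 (4.69%) were higher in GM-BMDC and 1144 (5.74%) lower, 10.4% in all, and each of these 2079 had non-overlapping arrays, as 51.3% of all genes had. At least 2-fold were 437 (2.19%) and 498 (2.5%), at least 4-fold 139 and 126, at least 8-fold 48 and 42, and at least 16-fold 19 and 13. Stable calls numbered 400 higher (2.01%) and 439 lower (2.2%). The median log2 difference over all genes was 0.02. Leaving out both GM-CSF arrays numbered 1 leaves arrays that all carry Y-linked RNA, but only 1 array of each GM-CSF population. The spread in that fit comes from the 2 M-BMM arrays alone. Its counts cover no spread within GM-BMDC or GM-BMM, and cannot check the split in Xist and Y-linked RNA. A fit of all 6 arrays that took in the average level of 3 Y-linked genes gave 975 higher and 1258 lower. It took in no Xist level, so it cannot account for the Xist RNA that GM-BMDC replicate 2 carried beside Y-linked RNA. The counts of 935 and 1144 both fell by more than 1.5 times without GM-BMDC replicate 1 (552 and 550) and without either M-BMM array (549 and 658). They also did so without GM-BMM replicate 2 (572 and 761). Those at least 2-fold stayed within 1.5 times their counts in each of these fits. Leaving out 1 M-BMM array leaves the other alone in its group, where it adds nothing to the spread. Here and below, fits without either M-BMM array thus equal the fit of only the 4 GM-CSF arrays.

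**Figure D1:**
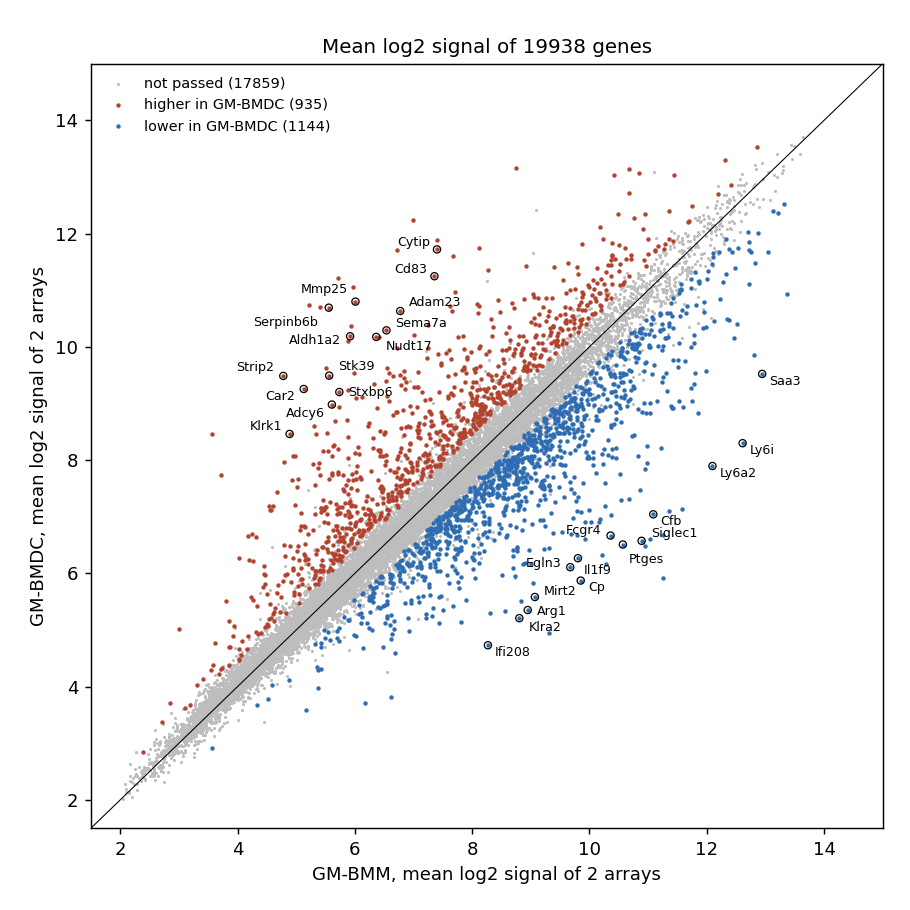
Mean log2 signal of each of 19938 genes in GM-BMM (horizontal axis, 2 arrays) and GM-BMDC (vertical axis, 2 arrays); the line marks equal signals, red points are the 935 genes called higher and blue points the 1144 called lower by limma. The 28 labelled genes are the lead genes of both directions, and unlabelled points as far from the line are genes that the rule for names left out.

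The 2 GM-BMDC arrays were not alike in how far they lay from GM-BMM. Among the 437 genes at least 2-fold higher, GM-BMDC replicate 1 exceeded replicate 2 in 356 (81.5%), by a median of 0.39, and among the 498 at least 2-fold lower in only 135 (27.1%), by a median of -0.27. Over all genes it was above in 53.0%, by a median of 0.02. GM-BMM replicate 1 exceeded its replicate 2 in 271 (62%) and 191 (38.4%) of the same sets, by medians of 0.08 and -0.17, against 44.2% of all genes.

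Among genes strongly raised in GM-BMDC were protease inhibitors, enzymes and contact molecules. The 14 described here had the largest stable differences once genes already named from earlier results of these arrays were set aside. Serpinb6b, an intracellular serine protease inhibitor, measured 11.15 and 10.23 in GM-BMDC, 5.69 and 5.42 in GM-BMM and 6.52 and 6.05 in M-BMM, a difference of 35.2-fold (5.14 ± 0.30, limma adjusted p = 0.000142). Mmp25, a membrane-bound metalloprotease, measured 11.22 and 10.38 against 5.98 and 6.04, or 27.6-fold (4.79 ± 0.25). Strip2, a subunit of a phosphatase and kinase scaffold, measured 10.02 and 8.95 against 4.78 and 4.78, a low level, or 26.1-fold (4.71 ± 0.30). In all 3 genes the M-BMM arrays lay within 1.2 units of GM-BMM and well below GM-BMDC.

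Cytip, which binds cytohesins and weakens adhesion of maturing dendritic cells, was at 11.91 and 11.53 in GM-BMDC against 8.41 and 6.40 in GM-BMM, 20.0-fold (4.32 ± 0.56) higher, with the GM-BMM arrays 2 units apart. Aldh1a2, which makes retinoic acid, was at 10.83 and 9.54 against 6.19 and 5.65, 19.3-fold (4.27 ± 0.41) higher, and Car2, a carbonic anhydrase, at 9.88 and 8.63 against 5.98 and 4.28, 17.5-fold (4.13 ± 0.57) higher. For each of these the lower GM-BMDC array stood above both GM-BMM arrays, as the rule for stable genes required. Cd83, a surface glycoprotein of mature dendritic cells, was at 11.57 and 10.93 against 7.57 and 7.14, 14.8-fold (3.89 ± 0.23) higher, and M-BMM lay between, at 8.84 and 9.03. Sema7a, a membrane-anchored semaphorin, showed the same order of levels, at 10.71 and 9.87 in GM-BMDC, 8.36 and 8.37 in M-BMM and 6.37 and 6.71 in GM-BMM (13.5-fold, 3.75 ± 0.26).

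Klrk1 encodes NKG2D, an activating receptor best known on natural killer cells, and was at 8.64 and 8.28 in GM-BMDC against 4.93 and 4.84 in GM-BMM, both low (11.9-fold, 3.57 ± 0.15). Of the 12 genes of the T and NK list, 6 were low on all 4 GM-CSF arrays, the natural killer genes Ncr1 and Klrb1c among them. Cd8a of that list was called higher (7.12 and 6.55 against 5.50 and 5.90), a call that was not stable. The part of such cells was not tested. Adam23, an integrin-binding member of the ADAM family, was 14.5-fold (3.86 ± 0.35) higher, Stk39, a kinase that controls chloride transporters, 15.2-fold (3.93 ± 0.28), and Nudt17, a nucleotide hydrolase, 14-fold (3.81 ± 0.34). Stxbp6, a syntaxin-binding protein, was 11.1-fold (3.47 ± 0.28) and Adcy6, an adenylyl cyclase that makes cyclic AMP, 10.4-fold (3.37 ± 0.27) higher. By the rule for stable genes, both GM-BMDC arrays exceeded both GM-BMM arrays. In 14 of 14 genes they also exceeded both M-BMM arrays, and GM-BMDC replicate 1 exceeded replicate 2.

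Lead genes on the macrophage side encode innate surface receptors, complement, acute-phase and hypoxia-linked proteins. Siglec1, a sialic acid receptor of macrophages, measured 6.33 and 6.81 in GM-BMDC, 10.24 and 11.54 in GM-BMM and 9.80 and 9.72 in M-BMM, and was 19.9-fold (-4.32 ± 0.38) lower in GM-BMDC. Fcgr4, an activating receptor for IgG, measured 6.02 and 7.31 against 9.68 and 11.04, with M-BMM at 11.72 and 11.66 (12.9-fold, -3.69 ± 0.50). Klra2, a lectin-like receptor, measured 4.42 and 6.00 against 8.12 and 9.49 (12.1-fold, -3.60 ± 0.56). In these 3 receptors M-BMM stood near or above GM-BMM.

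A second set was high in GM-BMM and near the GM-BMDC level in M-BMM. Ly6i, a small membrane-anchored Ly6 protein, measured 8.25 and 8.35 in GM-BMDC, 12.59 and 12.64 in GM-BMM and 8.55 and 8.43 in M-BMM (19.9-fold lower, -4.31 ± 0.11, limma adjusted p = 1.88e-05). Its neighbour Ly6a2 measured 7.76 and 8.03, 12.33 and 11.86, and 7.94 and 7.84 in the same order (18.4-fold lower, -4.20 ± 0.18). Arg1, the arginase that consumes arginine, measured 5.37 and 5.34, 9.23 and 8.67, and 5.35 and 5.43 (12.1-fold lower, -3.60 ± 0.18). Mirt2, a long non-coding RNA of activated macrophages, measured 5.45 and 5.71, 9.27 and 8.87, and 5.81 and 5.38 (11.2-fold lower, -3.49 ± 0.20). All 4 thus had GM-BMM above both other populations on each array.

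Ptges, which makes prostaglandin E2, was at 6.52 and 6.49 in GM-BMDC against 10.60 and 10.54 in GM-BMM (16.7-fold lower, -4.06 ± 0.15). Egln3, an oxygen-sensing hydroxylase induced in hypoxia, was at 6.17 and 6.05 against 9.88 and 9.47 (11.8-fold lower, -3.56 ± 0.16). Il1f9, a cytokine of the interleukin 1 family, was at 6.12 and 6.42 against 10.56 and 9.05 (11.6-fold lower, -3.54 ± 0.42). M-BMM measured 7.42 and 7.01, 7.19 and 6.95, and 6.94 and 6.68 for these 3, closer to GM-BMDC. Cfb, complement factor B, was 16.5-fold (-4.05 ± 0.35) and Ifi208, an interferon-inducible DNA sensor family member, 11.6-fold (-3.54 ± 0.23) lower, the latter against a low GM-BMDC level (4.94 and 4.52). Cp, the copper-carrying ferroxidase ceruloplasmin, was 15.8-fold (-3.98 ± 0.17) and Saa3, an acute-phase apolipoprotein, 10.7-fold (-3.42 ± 0.15) lower. Saa3 measured 9.40 and 9.65 in GM-BMDC, 12.79 and 13.10 in GM-BMM and 13.12 and 13.10 in M-BMM, so both macrophage populations stood above GM-BMDC.

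**Figure D2:**
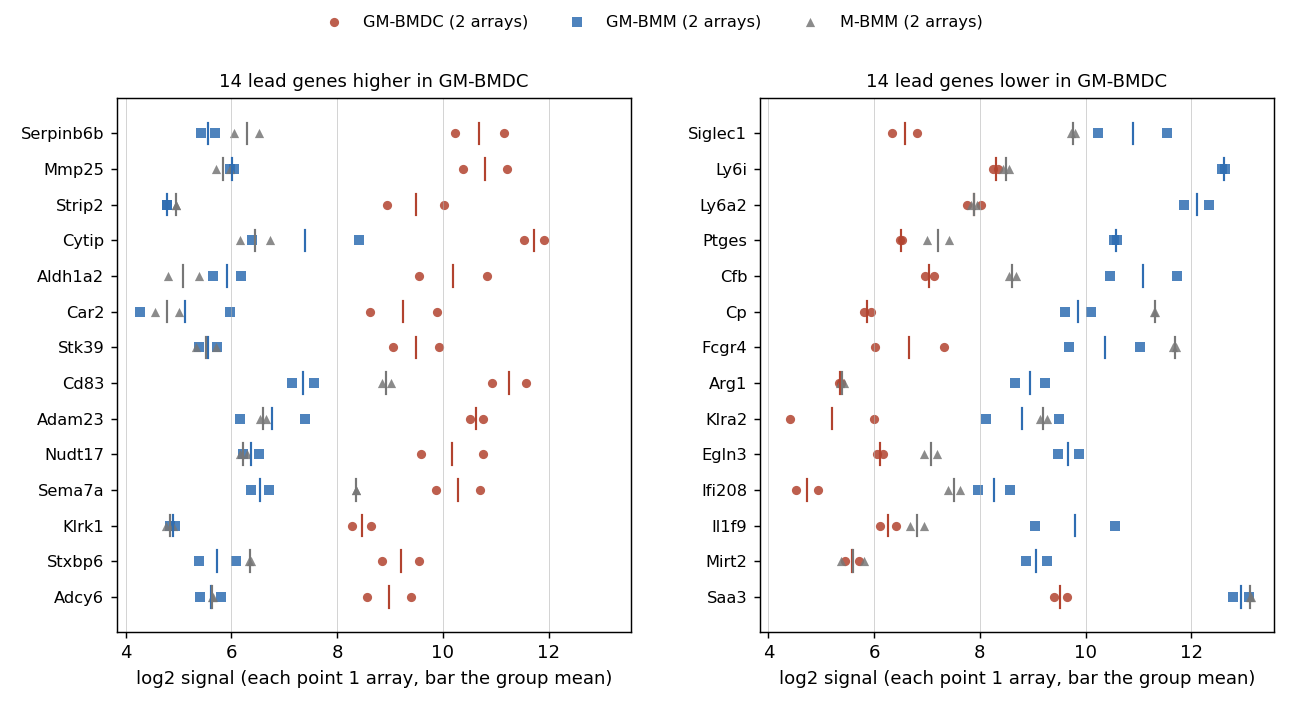
Log2 signal of the 14 lead genes in each direction; each point is 1 array, each short vertical bar a group mean of 2 arrays, with circles for GM-BMDC, squares for GM-BMM and triangles for M-BMM. The rule that chose the 28 genes required GM-BMDC and GM-BMM arrays without overlap. The M-BMM arrays of Ly6i (8.55 and 8.43) and Saa3 (13.12 and 13.10) show the opposite placements of M-BMM.

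Promoters of some lead genes held motifs of factors active in myeloid cells. Those shown were picked for a match and do not stand for the lead genes as a set. Shown are the 250 bases before the start of the 4 lead genes whose promoter held the interferon-stimulated response element of interferon regulatory factors (GAAA and GAAA with any 2 bases between), from RefSeq (GRCm38.p6). Fcgr4 lies at chr1:171018676-171018925 on the + strand, Ifi208 at chr1:173673415-173673664 on the + strand, Saa3 at chr7:46715677-46715926 on the - strand and Cytip, the only one of the 4 that was higher in GM-BMDC, at chr2:58160123-58160372 on the - strand. Capitals mark this element, the PU.1 site GAGGAAGT or the C/EBP site TTGCNNAA, on either strand, 5′ to 3′.
Fcgr4: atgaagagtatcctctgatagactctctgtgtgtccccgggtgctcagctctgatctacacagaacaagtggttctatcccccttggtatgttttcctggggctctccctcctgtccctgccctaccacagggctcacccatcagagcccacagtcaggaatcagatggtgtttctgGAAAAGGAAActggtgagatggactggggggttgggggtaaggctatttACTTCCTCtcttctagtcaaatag
Ifi208: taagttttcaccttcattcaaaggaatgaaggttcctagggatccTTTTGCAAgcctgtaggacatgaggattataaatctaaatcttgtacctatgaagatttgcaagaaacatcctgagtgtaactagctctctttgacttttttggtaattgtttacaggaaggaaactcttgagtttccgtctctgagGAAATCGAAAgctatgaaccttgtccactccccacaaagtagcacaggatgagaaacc
Saa3: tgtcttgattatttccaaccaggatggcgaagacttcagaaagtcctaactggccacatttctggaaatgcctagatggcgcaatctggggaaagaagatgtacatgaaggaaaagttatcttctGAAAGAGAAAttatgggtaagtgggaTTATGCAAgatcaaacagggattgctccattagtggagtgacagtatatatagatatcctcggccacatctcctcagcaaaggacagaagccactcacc
Cytip: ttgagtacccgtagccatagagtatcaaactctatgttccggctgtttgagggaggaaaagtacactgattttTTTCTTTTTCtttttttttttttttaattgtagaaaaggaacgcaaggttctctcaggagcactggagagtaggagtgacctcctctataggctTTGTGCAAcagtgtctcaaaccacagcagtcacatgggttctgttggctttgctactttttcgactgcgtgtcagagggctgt
Counted back from the gene start, the response element began at -73 in Fcgr4, -58 in Ifi208, -125 in Saa3 and -177 in Cytip, where it lies in a T-rich run. Fcgr4 also held a PU.1 site at -24, and Ifi208, Saa3 and Cytip a C/EBP site at -205, -99 and -83.

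Motif shares were counted over promoter windows of 250 bases before to 50 after the start, with RefSeq windows for 15614 of the measured genes, 347 of those at least 2-fold higher and 394 of those at least 2-fold lower. The interferon-stimulated response element was in 3.89% of all, 5.76% of the higher and 11.7% of the lower set. TTGCNNAA was in 11.3%, 12.7% and 19.8%, and the AP-1 site TGANTCA in 8.08%, 8.07% and 12.4%. GAGGAAGT was in 3.24%, 6.63% and 6.6%, so its share was above that of all genes in both directions. Less apart were TTCNNNGAA of STAT factors (8.99%, 8.36% and 11.7%), the E-box CACGTG (9.5%, 9.8% and 12.2%) and ACGTG, which is contained in it (24.4%, 24.8% and 27.7%). The kappa B site (GGGA, any base and TTTCC) was in 0.512%, 0.288% and 1.52%, and a looser form that contains it (GGG, any 2 bases and TTTCC) in 1.83%, 1.44% and 3.05%. TGACGTCA of cyclic AMP-responsive factors was in 2.72%, 1.73% and 1.52%, TGACNNNGC of antioxidant-responsive factors in 15.2%, 16.1% and 13.2%, and CCAAT in 41.7%, 39.8% and 40.9%. Over all called genes, without the 2-fold limit, some shares lay elsewhere: TGACGTCA was in 2.85% of the 736 higher and 2.93% of the 921 lower genes, the STAT site in 9.51% and 9.34%, and the stricter kappa B site in 0.679% and 0.977%. The interferon-stimulated response element was in 4.48% and 7.93% of them and TTGCNNAA in 11% and 16.1%. All 12 motifs were searched on both strands. The shares are a description with no test, a match is no shown site, and the sets were chosen by the same arrays.

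Across 48 function lists, 429 of the 2304 measured genes were called, beside 2079 of 19938 (10.4%) over all genes. The lists were chosen with earlier results of these arrays known, so the count is a description only. In the groups below, 2 counts give the members called higher and then lower in GM-BMDC, and medians are of the log2 difference. Each pair of counts stands beside 4.69% higher and 5.74% lower over all genes.

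**Figure D3:**
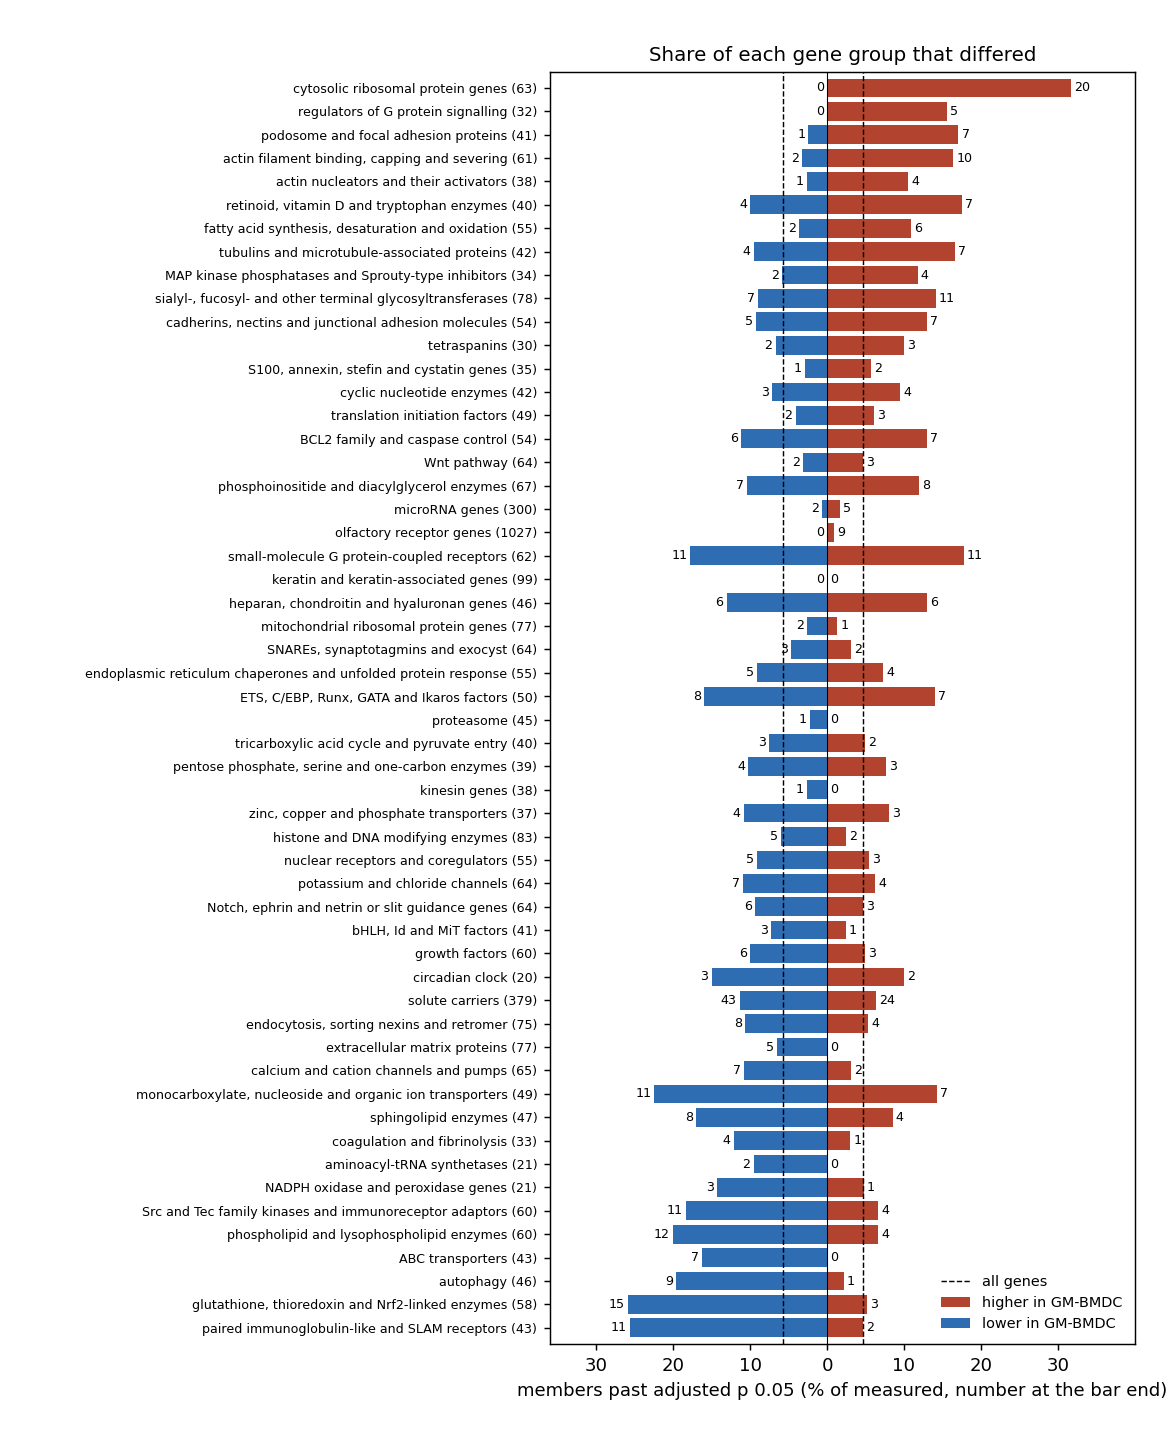
Share of each gene group called higher (red, right) or lower (blue, left) in GM-BMDC, in % of its measured members, whose number stands in brackets; numbers at the bar ends count genes, and dashed lines give the shares over all genes (4.69% and 5.74%). Cytosolic ribosomal protein genes show 20 of 63 higher and 0 lower, and the glutathione group 3 higher and 15 lower of 58.

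Among genes that shape the actin cytoskeleton, those called were mostly higher in GM-BMDC. Among 61 proteins that bind, cap or sever actin filaments, 10 were higher and 2 lower (median 0.15). Scin, a gelsolin-family severing protein, was 5.85-fold (2.55 ± 0.32) higher against a low GM-BMM level (4.72 and 4.40), Enah, which keeps filament ends growing, 3.07-fold (1.62 ± 0.17), Actn1, a cross-linker, 2.43-fold (1.28 ± 0.14), and Tmod2, a cap of slow-growing ends, 2.21-fold (1.15 ± 0.13), also against a low level (4.89 and 5.02). Enah measured 8.40 and 8.49 in GM-BMDC, 7.08 and 6.58 in GM-BMM and 5.76 and 5.92 in M-BMM. Among 38 actin nucleators and their activators 4 were higher and 1 lower (median 0.06). Nckap1, a subunit of the WAVE complex that drives branched actin, was 5.04-fold (2.33 ± 0.21) higher at 7.91 and 7.56 against 5.70 and 5.10. Spire1 was 2.54-fold (1.34 ± 0.13) and the formin gene Fmnl1 1.81-fold (0.85 ± 0.11) higher, whereas Cyfip2, another WAVE subunit, was 1.99-fold (-0.99 ± 0.13) lower. Of 41 podosome and focal adhesion genes 7 were higher and 1 lower (median 0.04), with Zyx, a mechanosensor of adhesions, 2.84-fold (1.51 ± 0.12) and Pdlim5 2.10-fold (1.07 ± 0.13) higher. For actin-binding genes the counts were 7 and 0 without GM-BMDC replicate 1, 9 and 0 without GM-BMM replicate 2, and 7 and 1 without either M-BMM array. For nucleators they were 3 and 2 without GM-BMDC replicate 2 and 3 and 3 without GM-BMM replicate 1. The podosome counts were 3 and 0 without GM-BMDC replicate 1 or either M-BMM array, 5 and 4 without GM-BMDC replicate 2, and 4 and 1 without GM-BMM replicate 2.

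Microtubule genes had 7 higher and 4 lower of 42 (median 0.04). Tubb2a (2.10-fold, 1.07 ± 0.12) and Tubb2b (2.24-fold, 1.16 ± 0.15), beta-tubulins with near-identical sequence whose signals may be shared, were higher, and Tuba4a, an alpha-tubulin, was 2.41-fold (-1.27 ± 0.15) lower. Mtus1, a microtubule-associated protein, was 2.68-fold (-1.42 ± 0.11) lower. The motors of microtubules differed little: of 38 kinesin genes 0 were higher and 1 lower, Kif13b (1.77-fold, -0.82 ± 0.12). Of 49 myosin genes, motors of actin, 3 were higher and 3 lower (12.2%, near the 10.4% of all genes). Myo1g, a membrane-linked myosin of blood cells, was 3.08-fold (1.62 ± 0.17) and Myo9a 2.07-fold (1.05 ± 0.12) higher. The microtubule counts were 4 and 2 without either GM-BMDC array, 3 and 2 without GM-BMM replicate 1 or either M-BMM array, and 4 and 4 without GM-BMM replicate 2. Kinesin counts were 1 and 2 without GM-BMDC replicate 2 and 0 and 2 without either GM-BMM array. Myosin counts were 2 and 1 without GM-BMDC replicate 1 or either M-BMM array, and 2 and 0 without GM-BMM replicate 2.

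Paired immunoglobulin-like and SLAM receptors, which tune myeloid activation through activating and inhibitory partners, had more members called lower than higher: 2 of 43 were higher and 11 lower (median -0.26). Trem3 was 7.13-fold (-2.83 ± 0.38) lower, at 5.81 and 6.52 in GM-BMDC against 8.40 and 9.60 in GM-BMM. Lair1, an inhibitory collagen receptor, was 4.66-fold (-2.22 ± 0.28) and Milr1, an inhibitory receptor also called Allergin-1, 4.56-fold (-2.19 ± 0.35) lower. Against that direction, Slamf1, which binds itself on neighbouring cells, was 9.83-fold (3.30 ± 0.28) higher, at 9.07 and 8.14 in GM-BMDC, 5.49 and 5.12 in GM-BMM and 5.98 and 6.08 in M-BMM. Without GM-BMM replicate 2 the counts were 3 and 7, and with the GM-CSF arrays numbered 1 left out 8 and 14.

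Adhesion genes of cell junctions had 7 higher and 5 lower of 54 (median 0.05). L1cam, an adhesion molecule first described on neurons, was 5.94-fold (2.57 ± 0.26), Nectin1 3.40-fold (1.77 ± 0.15), Cd34, a sialomucin of progenitors and endothelium, 3.38-fold (1.76 ± 0.19), and Cdh2, N-cadherin, 2.90-fold (1.54 ± 0.16) higher, the last against a low GM-BMM level of 4.45 on both arrays. Of 30 tetraspanins, organisers of membrane patches, 3 were higher and 2 lower (median -0.07). Tspan13 was 7.78-fold (2.96 ± 0.35), Tspan33 3.81-fold (1.93 ± 0.23) and Tspan2 2.02-fold (1.01 ± 0.15) higher, and Tspan4 was 2.99-fold (-1.58 ± 0.24) lower. Of 64 Notch, ephrin and guidance genes 3 were higher and 6 lower (median 0.02). The Notch1 receptor gene was 2.80-fold (-1.48 ± 0.22) lower, Lfng, which glycosylates Notch, 2.33-fold (1.22 ± 0.11) higher, and the ephrins Efna2 and Efnb2 were 4.23-fold (2.08 ± 0.22) and 2.14-fold (1.1 ± 0.13) higher. Adhesion counts were 9 and 2 without GM-BMDC replicate 1, 9 and 3 without GM-BMDC replicate 2, 6 and 2 without GM-BMM replicate 2, and 7 and 2 without either M-BMM array. Tetraspanin counts were 3 and 5 without GM-BMDC replicate 2 and 3 and 1 without either M-BMM array. Notch and ephrin counts were 3 and 2 without GM-BMDC replicate 1, and 3 and 3 without either M-BMM array.

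Receptors for small molecules were called as often in one direction as in the other: of 62, 11 were higher and 11 lower (35.5%, beside 10.4% of all genes, median 0.08). Gpr183, which follows oxysterols and positions dendritic cells in lymphoid tissue, was 5.82-fold (2.54 ± 0.14) higher at 9.18 and 9.47 against 6.70 and 6.87. Gpr132, a lipid and lactate receptor, was 3.53-fold (1.82 ± 0.14) higher. Gpr84, a receptor for medium-chain fatty acids, was 9.51-fold (-3.25 ± 0.25) lower at 7.13 and 7.46 in GM-BMDC against 10.15 and 10.94 in GM-BMM, and S1pr1, which guides exit from tissue along sphingosine 1-phosphate, was 3.76-fold (-1.91 ± 0.19) lower. Of 32 regulators of G protein signalling, which shorten such signals, 5 were higher and 0 lower (median -0.06): the receptor kinase Grk3 was 3.71-fold (1.89 ± 0.25), Rgs3 3.26-fold (1.70 ± 0.16) and Rgs12 2.14-fold (1.09 ± 0.12) higher. Of 33 G protein subunits 1 was higher and 2 lower (9.09%, under the 10.4% of all genes). Gnb4 was 8.12-fold (3.02 ± 0.29) higher and Gnb5 1.94-fold (-0.96 ± 0.11) lower. Receptor counts were 6 and 6 without GM-BMDC replicate 1, 5 and 8 without GM-BMM replicate 2, and 5 and 5 without either M-BMM array. Regulator counts were 3 and 0 without replicate 1 of GM-BMDC or 2 of GM-BMM, 3 and 1 without GM-BMDC replicate 2, and 4 and 2 without GM-BMM replicate 1. Subunit counts were 1 and 1 without GM-BMM replicate 2 or either M-BMM array.

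Kinases and adaptors next to immune receptors had 4 higher and 11 lower of 60 (median -0.05). Fyn, a Src-family kinase, was 7.95-fold (2.99 ± 0.17) higher at 9.35 and 8.89 in GM-BMDC and 6.23 and 6.02 in GM-BMM, with M-BMM at 8.34 and 8.21. The adaptor Grap2 was 4.30-fold (2.10 ± 0.13) and the ubiquitin ligase Cblb, a brake on such signals, 3.92-fold (1.97 ± 0.24) higher, whereas Fyb, an adaptor of integrin activation, was 4.31-fold (-2.11 ± 0.21) lower. Among 49 genes of the MAP kinase cascade 5 were higher and 3 lower (median -0.02), with Map3k14, the kinase of the alternative NF-kappaB pathway, 5.57-fold (2.48 ± 0.25) higher. Of 34 MAP kinase phosphatases and Sprouty-type inhibitors 4 were higher and 2 lower (median -0.08), with Dusp5, a phosphatase of ERK, 6.63-fold (2.73 ± 0.25) higher. Phosphoinositide and diacylglycerol enzymes had 8 higher and 7 lower of 67 (median 0.01), with the phosphatases Mtmr4 and Mtmr1 5.69-fold (2.51 ± 0.21) and 2.44-fold (1.29 ± 0.19) higher, the kinase Pip4k2a 2.25-fold (1.17 ± 0.12) higher and Inpp4b 2.12-fold (-1.08 ± 0.16) lower. Cyclic nucleotide enzymes had 4 higher and 3 lower of 42 (median -0.01). Beside Adcy6, the regulatory kinase subunit Prkar2a was 2.48-fold (1.31 ± 0.14) higher, and Pde7b, which degrades cyclic AMP, was 6.82-fold (-2.77 ± 0.29) lower. Kinase and adaptor counts were 4 and 6 without GM-BMDC replicate 1, 5 and 6 without GM-BMM replicate 2, and 4 and 7 without either M-BMM array. MAP kinase counts were 3 and 1 without replicate 1 of GM-BMDC or 2 of GM-BMM, and phosphatase counts 1 and 2 in the same fits, 2 and 1 without GM-BMM replicate 1 and 2 and 0 without either M-BMM array. Phosphoinositide counts were 7 and 2 without GM-BMDC replicate 1, 6 and 4 without GM-BMM replicate 2, and 7 and 4 without either M-BMM array. Cyclic nucleotide counts were 3 and 1 in those 3 fits.

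Transcription factors of the ETS, C/EBP, Runx, GATA and Ikaros families had 7 higher and 8 lower of 50 (30%, median 0.12). Spib, an ETS factor close to PU.1 and known from B cells and plasmacytoid dendritic cells, was 6.52-fold (2.70 ± 0.25) higher at 8.56 and 7.75 against 5.29 and 5.61. Zeb1, a repressor counted with this list, was 5.64-fold (2.50 ± 0.21), Etv3, an ETS repressor, 4.03-fold (2.01 ± 0.19) and Ikzf4 2.91-fold (1.54 ± 0.19) higher. Of 55 nuclear receptors and coregulators 3 were higher and 5 lower (median 0.09), with Vdr, the vitamin D receptor, 8.87-fold (3.15 ± 0.34) higher at 10.79 and 10.00 against 7.72 and 6.77, with M-BMM at 5.57 and 5.68. Fabp4, a lipid chaperone counted there, was 3.65-fold (-1.87 ± 0.16) lower. A pair of closely related clock repressors went opposite ways: Bhlhe40 was 2.49-fold (1.32 ± 0.20) higher and Bhlhe41 6.34-fold (-2.66 ± 0.18) lower. M-BMM measured 6.02 and 5.63 for Bhlhe40 and 8.0 and 7.84 for Bhlhe41. Of the 20 clock genes 2 were higher and 3 lower, Per2 among the latter (1.92-fold, -0.94 ± 0.11). Among 41 bHLH, Id and MiT factors 1 was higher and 3 lower (9.76%, under the 10.4% of all genes, median 0.02). They were Bhlhe40, Bhlhe41, Hif1a and Lyl1. Hif1a, the oxygen-regulated factor, was 1.92-fold (-0.94 ± 0.14) lower and Lyl1, a factor of early blood cells, 2.10-fold (-1.07 ± 0.18) lower. Of 17 Kruppel-like factors 2 were higher and 1 lower, with Klf8 3.11-fold (1.64 ± 0.17) higher and Klf3 1.84-fold (-0.88 ± 0.12) lower.

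Enzymes that modify histones and DNA were called at a share near the background, 2 higher and 5 lower of 83 (8.43%, median 0.02). Ezh2, the Polycomb methyltransferase, was 1.85-fold (0.89 ± 0.14) and Kdm2b 1.87-fold (0.90 ± 0.14) higher, while Kdm5b, a lysine demethylase, was 1.88-fold (-0.91 ± 0.11) and Padi4, which citrullinates histones, 2.86-fold (-1.51 ± 0.15) lower. The 347 zinc finger genes named Zfp, a large family of putative regulators, had 12 higher and 6 lower (5.19%), with Zfp366, known from dendritic cells as DC-SCRIPT, 3.35-fold (1.74 ± 0.14) higher at 8.32 and 8.03 against 6.44 and 6.42. The ETS-list counts were 5 and 4 without GM-BMDC replicate 1, and 6 and 4 without GM-BMM replicate 2 or either M-BMM array. Nuclear receptor counts were 1 and 2 without GM-BMDC replicate 1, clock counts 1 and 2 without replicate 1 of GM-BMDC or 1 of GM-BMM, and bHLH counts 2 and 4 without GM-BMM replicate 1. Kruppel-like counts were 1 and 1 without GM-BMDC replicate 1, GM-BMM replicate 2 or either M-BMM array and 2 and 3 without GM-BMDC replicate 2. Histone enzyme counts were 2 and 2 without GM-BMDC replicate 1 and 2 and 3 without GM-BMM replicate 2. Zinc finger counts were 3 and 1 without GM-BMDC replicate 1, 7 and 4 without GM-BMDC replicate 2, 4 and 4 without GM-BMM replicate 2, and 4 and 3 without either M-BMM array.

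Several enzymes that make retinoic acid or break down tryptophan were higher in GM-BMDC. Of 40 retinoid, vitamin D and tryptophan enzymes 7 were higher and 4 lower (median 0.00), and 5 of the higher and 0 of the lower were stable. Beside Aldh1a2, 3 enzymes of the kynurenine route of tryptophan were raised: Kmo, a monooxygenase, was 7.71-fold (2.95 ± 0.26), Kynu, a hydrolase, 3.73-fold (1.90 ± 0.15) and Haao, a dioxygenase, 4.40-fold (2.14 ± 0.16) higher. Kynu measured 11.04 and 10.84 in GM-BMDC, 9.21 and 8.87 in GM-BMM and 6.13 and 6.00 in M-BMM, so both GM-CSF populations stood above M-BMM. Kmo belongs to the dendritic cell marker list as well. The counts were 6 and 0 without GM-BMDC replicate 1, and 5 and 1 without GM-BMM replicate 1, GM-BMM replicate 2 or either M-BMM array.

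Lipid enzymes split by class. Fatty acid enzymes had 6 higher and 2 lower of 55 (median 0.06): Slc27a3, an acyl-CoA synthetase, was 6.20-fold (2.63 ± 0.15), Scd1, a desaturase, 2.72-fold (1.44 ± 0.21), Acss1, which activates acetate, 2.16-fold (1.11 ± 0.12) and Fasn, fatty acid synthase, 2.07-fold (1.05 ± 0.14) higher. Scd1 measured 10.74 and 10.14, 8.83 and 9.16, and 5.57 and 5.66 in GM-BMDC, GM-BMM and M-BMM. Phospholipid and lysophospholipid enzymes had 4 higher and 12 lower of 60 (median -0.14). Gdpd1, a lysophospholipase D, was 5.01-fold (-2.32 ± 0.21), Plpp3, a lipid phosphatase, 4.79-fold (-2.26 ± 0.15) and Chpt1, a choline phosphotransferase, 3.18-fold (-1.67 ± 0.18) lower, and the acyltransferase Lpcat4 was 2.61-fold (1.38 ± 0.12) higher. Sphingolipid enzymes had 4 higher and 8 lower of 47 (median -0.04), with Sgms2, a sphingomyelin synthase, 7.02-fold (-2.81 ± 0.14) lower at 6.34 and 6.50 in GM-BMDC against 9.34 and 9.12 in GM-BMM. Smpdl3b and Asah2 were 3.34-fold (-1.74 ± 0.13) and 2.24-fold (-1.16 ± 0.11) lower and the sialyltransferase St8sia1 1.77-fold (0.82 ± 0.12) higher. Fatty acid counts were 5 and 0 without GM-BMDC replicate 1. Phospholipid counts were 3 and 7 without GM-BMDC replicate 1 or either M-BMM array. Sphingolipid counts were 3 and 3 without GM-BMDC replicate 1, 2 and 9 without GM-BMDC replicate 2, 2 and 4 without GM-BMM replicate 1, 2 and 6 without GM-BMM replicate 2 and 1 and 5 without either M-BMM array.

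Antioxidant enzymes were more often lower in GM-BMDC. Of 58 glutathione, thioredoxin and Nrf2-linked genes, 3 were higher and 15 lower (31.0%), the median was -0.35 beside 0.02 over all genes, and no single array moved either count by over 1.5 times. The median level of the 58 genes was 7.95 and 8.47 in GM-BMDC, 8.74 and 8.55 in GM-BMM and 8.38 and 8.26 in M-BMM. By that level GM-BMDC replicate 2 lay near GM-BMM replicate 2, and GM-BMDC replicate 1 further below. Mgst2, a microsomal glutathione transferase, was 5.87-fold (-2.55 ± 0.22) lower at 6.73 and 6.10 in GM-BMDC, 9.06 and 8.88 in GM-BMM and 6.29 and 5.99 in M-BMM. Gsta3, a cytosolic transferase, was 4.46-fold (-2.16 ± 0.12) and Sod2, the mitochondrial superoxide dismutase, 4.30-fold (-2.10 ± 0.13) lower, Sod2 at 10.37 and 10.45 against 12.37 and 12.65. Sesn3, a stress-response protein, was 3.10-fold (1.63 ± 0.15) higher. The 4 neighbouring transferase genes, taken up for their position after their values were seen, were Gstm1, Gstm2, Gstm3 and Gstm4, 1.82-fold to 2.25-fold lower. They are copies of a gene family, whose probe sets may share signal, which was not tested. The calls of Gstm1 and Gstm3 were not stable. The list's median stayed below 0 under other scalings, at -0.37 with arrays centred on their medians and -0.32 with quantile normalization.

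Of 40 genes of the tricarboxylic acid cycle and pyruvate entry, 2 were higher and 3 lower (median -0.16), and 1 call was stable. Acod1, which diverts the cycle to itaconate, was 7.73-fold (-2.95 ± 0.16) lower at 10.02 and 9.70 in GM-BMDC against 12.65 and 12.97 in GM-BMM, with M-BMM at 11.68 and 11.59. Sdhb (8.85 and 9.17 against 9.65 and 10.06), a subunit of the enzyme itaconate inhibits, was called 1.80-fold lower, a call that ended without GM-BMDC replicate 1 and in other fits. Of 21 NADPH oxidase and peroxidase genes 1 was higher and 3 lower, with Ncf4, an oxidase subunit, 2.45-fold (-1.29 ± 0.15) lower. The cycle counts were 1 and 1 without GM-BMDC replicate 1, 0 and 5 without GM-BMDC replicate 2, 0 and 3 without GM-BMM replicate 1, and 0 and 1 without GM-BMM replicate 2 or either M-BMM array. The oxidase counts were 0 and 1 without GM-BMDC replicate 1, GM-BMM replicate 2 or without an M-BMM array, 0 and 3 without GM-BMDC replicate 2, and 2 and 2 without GM-BMM replicate 1.

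Membrane transport genes were more often lower. Among 379 solute carriers 24 were higher and 43 lower (17.7%, median -0.03). Slc6a12, a carrier of betaine and GABA, was 8.04-fold (-3.01 ± 0.12) lower, at 8.20 and 8.24 in GM-BMDC, 11.12 and 11.33 in GM-BMM and 6.70 and 6.63 in M-BMM, and the zinc importer Slc39a4 6.40-fold (-2.68 ± 0.22) lower. Slc22a23, an orphan organic ion carrier, was 8.48-fold (3.08 ± 0.26) higher. For metals, both copper transporters Slc31a1 and Slc31a2 were 3.21-fold (-1.68 ± 0.21) and 3.15-fold (-1.66 ± 0.11) lower and the zinc exporter Slc30a4 3.40-fold (1.77 ± 0.14) higher. Among 43 ABC transporters 0 were higher and 7 lower (median -0.17), and single arrays left at least 5 lower. Abcc5 was 2.98-fold (-1.57 ± 0.14), Abca1, which exports cholesterol, 2.33-fold (-1.22 ± 0.15), and Abca3 1.68-fold (-0.75 ± 0.12) lower. Without GM-BMDC replicate 1 the solute carrier counts were 15 and 23, without GM-BMM replicate 2 they were 13 and 30, and without either M-BMM array 14 and 30.

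Among ion channel genes, 4 were higher and 7 lower of 64 potassium and chloride channels (17.2%, beside 10.4% of all genes, median -0.01). Calcium and cation channels and pumps had 2 higher and 7 lower of 65 (13.8%, median 0.04). Of these 65, called or not, 38 had a positive difference. Kcnn3, a calcium-activated potassium channel, was 9.92-fold (-3.31 ± 0.24) lower, at 6.56 and 6.65 in GM-BMDC, 10.31 and 9.52 in GM-BMM and 6.16 and 5.99 in M-BMM. Best1, a chloride channel, was 4.66-fold (-2.22 ± 0.27), the inward rectifier Kcnj2 3.61-fold (-1.85 ± 0.17), and Ano6, a lipid scramblase and channel, 3.30-fold (-1.72 ± 0.21) lower. Trpm2, a channel gated by oxidative stress products, was 3.37-fold (-1.75 ± 0.18) and the endolysosomal channel Mcoln2 1.96-fold (-0.97 ± 0.14) lower. Potassium and chloride channel counts were 1 and 6 without GM-BMM replicate 1 and 2 and 7 without either M-BMM array. Calcium channel counts were 1 and 3 without GM-BMDC replicate 1, 0 and 5 without GM-BMM replicate 1, and 0 and 3 without GM-BMM replicate 2 or either M-BMM array.

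Genes of cytosolic ribosomal proteins, the parts of the protein-making machine, stood higher in GM-BMDC as a group, by small amounts. All 63 measured members had a positive log2 difference, from 0.06 to 1.07 with a median of 0.42, and 20 were called higher and 0 lower (31.7%). The median level of the 63 genes was 10.75 and 10.80 in GM-BMDC, 10.39 and 10.32 in GM-BMM and 10.95 and 10.92 in M-BMM, so GM-BMM was the lowest of the 3 populations. Rpsa was 2.10-fold (1.07 ± 0.13), Rpl36 1.78-fold (0.83 ± 0.11) and Rps7 1.77-fold (0.83 ± 0.12) higher. The median was 0.40 with arrays centred on their medians and 0.47 with quantile normalization, under which 36 were called higher. Most of these calls were not stable: the count was 7 without GM-BMDC replicate 2, 5 without GM-BMM replicate 2, and 6 without GM-BMDC replicate 1 or either M-BMM array. Many of these genes have processed copies in the genome, and whether their probe sets share signal was not tested. Mitochondrial ribosomal proteins had 1 higher and 2 lower of 77 (median -0.05), translation initiation factors 3 and 2 of 49 (median 0.05), and aminoacyl-tRNA synthetases 0 and 2 of 21 (median -0.07), with shares of 3.9%, 10.2% and 9.52%, each under the 10.4% of all genes. Without GM-BMDC replicate 1 these counts were 0 and 0, 1 and 1, and 0 and 0, and without GM-BMM replicate 2 they were 0 and 1, 1 and 1, and 0 and 0. Without either M-BMM array they were 0 and 0, 1 and 2, and 0 and 0. Without GM-BMDC replicate 2 the first and the second count were 1 and 1 each, and without GM-BMM replicate 1 the first was 1 and 1 and the third 0 and 1.

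Protein breakdown genes differed by route. Of 46 autophagy genes 1 was higher and 9 lower (median -0.13): Bnip3, a hypoxia-linked mitophagy receptor, was 2.67-fold (-1.42 ± 0.18), Wipi1, a marker of forming autophagosomes, 2.32-fold (-1.21 ± 0.12), Plekhm1, which helps fusion with lysosomes, 1.86-fold (-0.89 ± 0.14), and Atg4a 1.71-fold (-0.77 ± 0.12) lower. Of 45 proteasome subunits and assembly factors 0 were higher and 1 lower (2.22%, median -0.11), the chaperone gene Psmd10, whose call ended without GM-BMDC replicate 1. Of 55 endoplasmic reticulum chaperone and unfolded protein response genes 4 were higher and 5 lower, with Herpud1, a stress-induced membrane protein, 3.05-fold (1.61 ± 0.13) higher and Ero1a, an oxidase of folding proteins, 2.80-fold (-1.48 ± 0.21) lower. Endocytosis and sorting genes had 4 higher and 8 lower of 75 (median -0.13). Ap1s3, an adaptor subunit, was 4.87-fold (2.28 ± 0.29) higher, and Stab1, a scavenger receptor, 3.83-fold (-1.94 ± 0.31), Snx18 2.38-fold (-1.25 ± 0.14) and Snx7 2.22-fold (-1.15 ± 0.11) lower. Autophagy counts were 0 and 4 without GM-BMDC replicate 1, 0 and 5 without either GM-BMM array and 0 and 6 without either M-BMM array. Proteasome counts were 0 and 0 without GM-BMDC replicate 1, 0 and 3 without GM-BMM replicate 1 and 0 and 2 without GM-BMM replicate 2. Reticulum counts were 1 and 2, 5 and 2, 1 and 4, 2 and 1, and 3 and 2 without GM-BMDC replicates 1 and 2, GM-BMM replicates 1 and 2, and either M-BMM array. Endocytosis counts were 2 and 3 without GM-BMDC replicate 1, 4 and 13 without GM-BMDC replicate 2, 2 and 4 without GM-BMM replicate 2, and 3 and 4 without either M-BMM array.

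**Figure D4:**
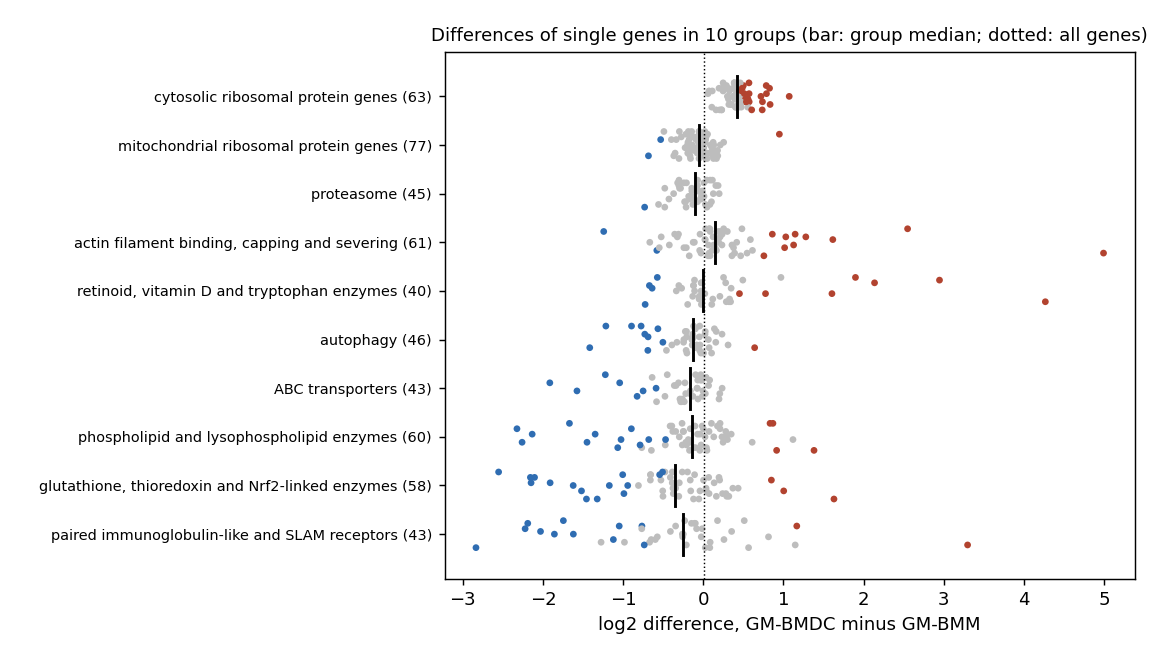
Log2 difference, GM-BMDC minus GM-BMM, of each member of 10 gene groups; red points were called higher, blue lower and grey not called, the black bar is the group median and the dotted line the median of all genes (0.02), with the number of measured members in brackets. The 63 cytosolic ribosomal protein genes all lie above 0 (0.06 to 1.07). Mitochondrial ribosomal genes lie on both sides of it (-0.68 to 0.95), and proteasome genes mostly below it (-0.73 to 0.20, 13 of 45 above 0).

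Growth factor and coagulation genes were called at shares above that of all genes, and matrix genes at a share below it. Of 60 growth factor genes 3 were higher and 6 lower (median -0.01): Nrg4, an ErbB4 ligand, was 3.02-fold (-1.60 ± 0.26), Hgf, hepatocyte growth factor, 2.51-fold (-1.32 ± 0.19), and Vegfa, which drives vessel growth, 2.28-fold (-1.19 ± 0.14) lower, and Fgf13, which acts inside cells, 2.05-fold (1.03 ± 0.15) higher. Vegfa measured 9.24 and 9.14 in GM-BMDC, 10.32 and 10.44 in GM-BMM and 8.98 and 8.68 in M-BMM. Of 77 extracellular matrix genes 0 were higher and 5 lower (6.49%, median 0.03), Ecm1 4.57-fold (-2.19 ± 0.31) and the proteoglycan Dcn 3.17-fold (-1.67 ± 0.23). Dcn is also a stromal marker. The stromal genes Col1a1, Col1a2 and Col3a1 did not pass, and Lum was low on all 4 GM-CSF arrays. Thbs1, a matrix glycoprotein counted with coagulation genes (1 higher and 4 lower of 33), was 1.79-fold (-0.84 ± 0.13) and Tfpi, a brake on clotting, 1.93-fold (-0.95 ± 0.12) lower. Growth factor counts were 1 and 4 without GM-BMDC replicate 1. Matrix counts were 3 and 6 without GM-BMDC replicate 2, 2 and 6 without GM-BMM replicate 1 and 1 and 3 without GM-BMM replicate 2. Coagulation counts were 0 and 2 without GM-BMDC replicate 1, 4 and 2 without GM-BMM replicate 1, 0 and 5 without GM-BMM replicate 2, 0 and 3 without either M-BMM array, and 4 and 2 without both GM-CSF arrays numbered 1.

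Enzymes that build surface sugars were called in both directions. Of 78 terminal glycosyltransferases 11 were higher and 7 lower (23.1%, median 0.01). St6gal1, which caps glycans with sialic acid, was 4.17-fold (2.06 ± 0.24) higher at 9.16 and 9.25 in GM-BMDC against 7.54 and 6.74 in GM-BMM, and St8sia6, another sialyltransferase, 3.18-fold (1.67 ± 0.21). B3gnt5, which starts lacto-series glycolipids, was 3.28-fold (1.71 ± 0.24) and Galnt12, which starts mucin-type glycans, 3.11-fold (1.64 ± 0.11) higher. Of 46 heparan, chondroitin and hyaluronan genes 6 were higher and 6 lower (median 0.12), and the stable calls were 3 higher and 0 lower. Ext1, a polymerase of heparan sulfate, was 3.78-fold (1.92 ± 0.16), its relative Extl1 2.07-fold (1.05 ± 0.18), and the sulfotransferase Chst7 2.28-fold (1.19 ± 0.17) higher. Glycosyltransferase counts were 6 and 5 without GM-BMDC replicate 1 or either M-BMM array, and heparan counts 3 and 0 without GM-BMDC replicate 1, 4 and 3 without GM-BMM replicate 2 and 4 and 1 without either M-BMM array.

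Survival and death genes were called in both directions, 7 higher and 6 lower of 54 (24.1%, median -0.02), with no single array moving these counts by over 1.5 times. Serpinb9, an inhibitor of granzyme B that protects cells from killer lymphocytes, was 7.10-fold (2.83 ± 0.25) higher at 9.79 and 9.18 against 6.38 and 6.94. Birc2, an inhibitor of apoptosis, was 2.69-fold (1.43 ± 0.17) and Pmaip1, the pro-apoptotic Noxa, 2.68-fold (1.42 ± 0.14) higher, so members with opposite roles moved together. Mlkl, the pore former of necroptosis, was 3.15-fold (-1.66 ± 0.13) lower. Cst3, cystatin C, was 1.59-fold (0.67 ± 0.11) and S100a4 2.26-fold (1.18 ± 0.15) higher among 35 S100, annexin and cystatin genes, of which 2 were higher and 1 lower (8.57%). That last group had 2 and 2 without GM-BMDC replicate 2, 4 and 1 without GM-BMM replicate 1 and 2 and 5 without GM-BMM replicate 2.

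MicroRNAs are short RNAs that pair with messenger RNAs through bases 2 to 8, the seed. Of 300 microRNA genes on the array 5 were called higher and 2 lower (2.33%, median 0.05), and 156 had a low mean level. The array reports signal at the microRNA gene, which can come from its longer precursor transcript, not the mature strands. Stable were Mir142, a microRNA of blood cells, 2.18-fold (1.13 ± 0.17) higher at 7.90 and 7.80 in GM-BMDC, 6.90 and 6.55 in GM-BMM and 6.92 and 6.54 in M-BMM, and Mirlet7e, 1.88-fold (-0.91 ± 0.12) lower at 5.86 and 5.85 against 6.89 and 6.64. Mir17 and Mir18, of the same cluster, were called 1.46-fold (0.55 ± 0.12) and 1.67-fold (0.74 ± 0.14) higher at low levels in GM-BMM (4.55 and 4.51, and 3.61 and 3.48), and those calls ended without replicate 1 of GM-BMDC or 2 of GM-BMM. The mature strands of the pair of stable genes and the 5p strands of the cluster, from RefSeq (GRCm38.p6), are given below with the seed in capitals. The miR-142 strands lie at chr11:87756867-87756887 and chr11:87756903-87756925 and let-7e-5p at chr17:17830366-17830387, all on the + strand.
mmu-miR-142a-5p: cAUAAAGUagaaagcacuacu
mmu-miR-142a-3p: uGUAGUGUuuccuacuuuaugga
mmu-let-7e-5p: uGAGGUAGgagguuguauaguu
mmu-miR-17-5p: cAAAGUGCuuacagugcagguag
mmu-miR-18a-5p: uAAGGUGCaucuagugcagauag
The 5 seeds differ from each other. Mir155, a microRNA of activated immune cells, measured 8.95 and 7.87 against 7.73 and 6.49 and did not pass (log2 difference 1.30 ± 0.44, limma adjusted p = 0.125). The 3 other calls were Mir9-3 and Mir677, higher, and Mir340, lower, none stable, and the counts were 1 and 2 without GM-BMDC replicate 1, 7 and 1 without GM-BMDC replicate 2, 8 and 1 without GM-BMM replicate 1, 1 and 1 without GM-BMM replicate 2 and 2 and 1 without either M-BMM array.

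A small share of the called genes lay in runs along the chromosomes. In the RefSeq order of 19919 measured genes (GRCm38.p6), 40 runs had at least 3 consecutive genes called in the same direction, 18 higher and 22 lower, with 144 of the 2079 called genes in all. How many such runs an unrelated order would give was not tested. The longest of them held 8 Schlafen genes, from Slfn5 to Slfn3, lower by log2 differences from -0.59 to -4.43, of which 4 were stable. The run of 5 interferon-inducible genes from Ifi206 to Ifi208 had differences from -1.08 to -3.54, 4 of them stable, and that of the 4 complement protease genes C1rl, C1ra, C1s1 and C1s2 from -1.39 to -2.79, all stable. C1s1 measured 3.88 and 3.75 in GM-BMDC, 6.29 and 6.93 in GM-BMM and 3.57 and 3.39 in M-BMM, so it was above the low level in GM-BMM alone. These runs hold copies of a gene family, whose probe sets may share signal, which was not tested. On the other side, Serpinb6b, Serpinb9 and Serpinb9b (7.20-fold, 2.85 ± 0.32) formed a run of protease inhibitors that were higher.

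A run of 7 genes without shared sequence family surrounded Mir142. Tex14, Septin4, Mtmr4, Hsf5, Rnf43, Mir142 and Tspoap1 were each higher, by log2 differences from 0.79 to 2.51, and 5 of the 7 were stable. Mtmr4 measured 10.93 and 10.27 in GM-BMDC against 7.99 and 8.19 in GM-BMM, and Tspoap1 8.42 and 7.93 against 6.14 and 6.64 (3.44-fold, 1.78 ± 0.21). Hsf5 measured 6.45 and 6.03 against 5.19 and 5.11 (2.13-fold, 1.09 ± 0.16), and Septin4 6.74 and 6.45 against 5.82 and 5.76 (1.74-fold, 0.80 ± 0.13). Tex14 and Rnf43 lost their calls without GM-BMDC replicate 1. In each of the 7 genes both M-BMM arrays lay below both GM-BMDC arrays. A second mixed run, Tubb2a, Tubb2b, Psmg4, Slc22a23 and Pxdc1, was higher with all 5 stable. Pxdc1 measured 7.97 and 8.18 in GM-BMDC against 4.93 and 4.97 in GM-BMM, low there (8.70-fold, 3.12 ± 0.13). Runs and the genes named from them were chosen after their values were seen, and are a description with no test.

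**Figure D5:**
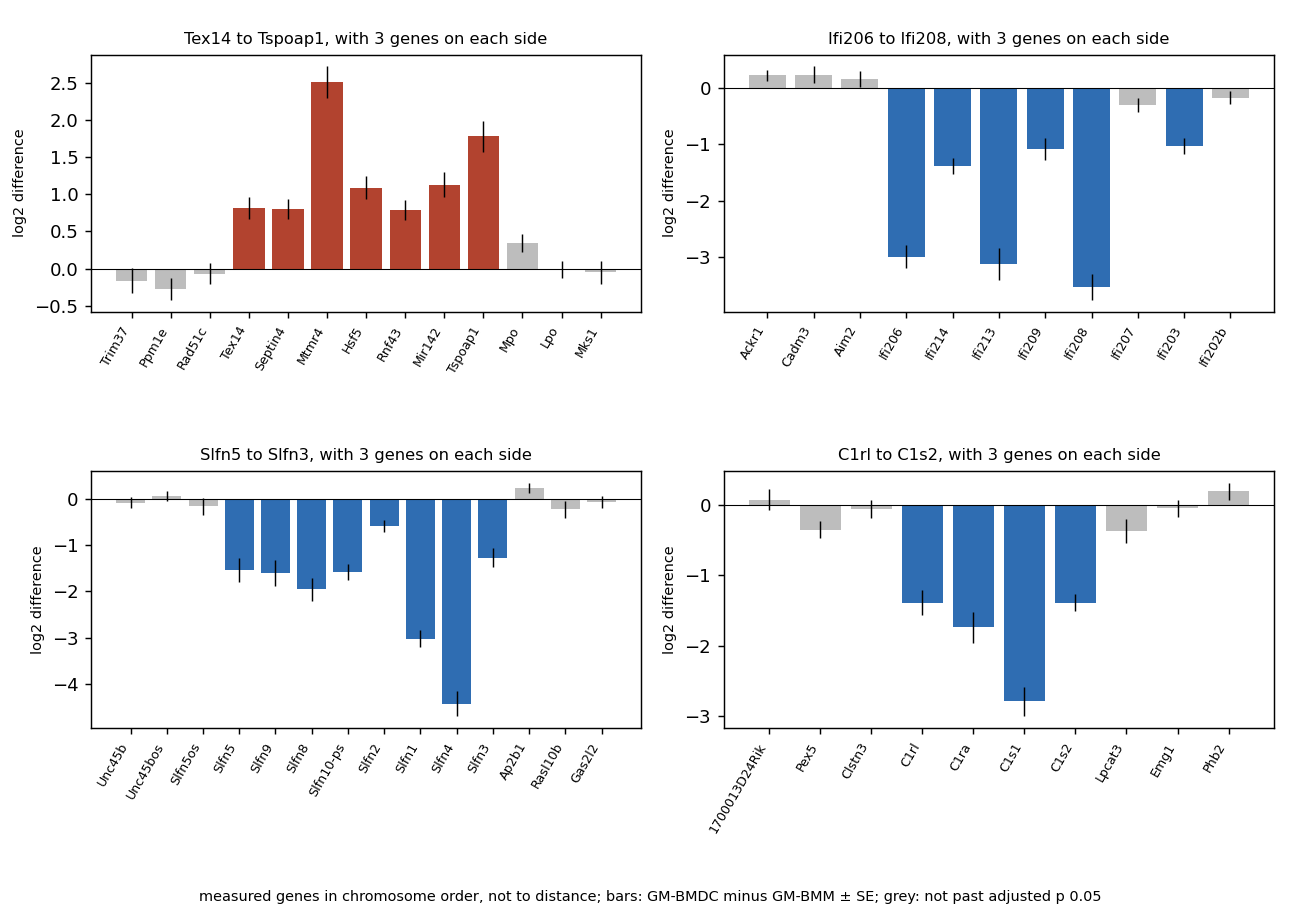
Log2 difference, GM-BMDC minus GM-BMM, with its standard error (bars and lines) for measured genes in chromosome order around 4 runs, with 3 neighbours on each side and spacing not to distance; red bars were called higher, blue lower and grey not called. The 7 genes from Tex14 to Tspoap1 lie between 0.79 and 2.51, and the 8 Schlafen genes between -0.59 and -4.43.

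Families that these cells are not known to use were called rarely. Of 1027 olfactory receptor genes 9 were higher and 0 lower (0.876%), their median difference was 0.10, and 727 had a low mean level. Of 99 keratin and keratin-associated genes 0 were called, of 167 vomeronasal receptor genes 1 in each direction and of 40 beta-defensin genes 0. Olfr920 was the one stable call among them (8.56 and 8.24 against 7.01 and 7.15, 2.49-fold). The olfactory median was 0.08 with arrays centred on their medians, with 6 higher, and 0.05 with quantile normalization, with 5 higher. Without GM-BMDC replicate 1 or either M-BMM array the olfactory count was 4, and without GM-BMM replicate 2 it was 1. Vomeronasal counts were 1 and 0 without GM-BMDC replicate 1 and 0 and 1 without GM-BMDC replicate 2, GM-BMM replicate 1 or either M-BMM array. Keratin counts were 0 and 1 without GM-BMDC replicate 1 and 1 and 0 without GM-BMDC replicate 2.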

How the data were processed

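Sorted mouse marrow cultures were measured on Affymetrix arrays, 6 in all, and the value table holds log2 signals that the authors made with Affymetrix Expression Console 1.1 and RMA, per the labels. RMA brings all arrays to the same distribution, so a change shared by most genes cannot be seen. The table named 35556 probe sets: 21789 had 1 gene, 1621 several and 12146 none here. Each of 19938 genes was read from 1 single-gene probe set, for the 999 genes with several the one whose mean signal in the 6 arrays was highest. Symbols came from the platform annotation, of which 19856 matched a RefSeq gene of GRCm38.p6. The number of arrays limits the precision.

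limma 3.58.1 in R 4.3.3 was fitted to all 6 arrays, and the contrast GM-BMDC minus GM-BMM was tested with Benjamini-Hochberg adjustment over all genes. Standard errors had a median of 0.132, with 3 residual degrees of freedom. In data simulated for this contrast over 19938 genes with 200 changed, the fit found 0% of 1.5-fold, 81.5% of 2-fold and 98.5% of 4-fold changes, with 0, 10 and 8 false calls. Replicates of a group differed by 0.281, 0.31 and 0.21 (root mean square, log2) in GM-BMDC, GM-BMM and M-BMM.

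The rule for names took the 14 stable genes with the largest difference in each direction after leaving out predicted, clone, microRNA and small RNA names and genes already named from earlier results of these arrays, up to 4 stable members of each function list (or up to 2 further called ones where fewer than 2 were stable), up to 3 of each symbol family, the genes of the gates, markers and sex-linked genes. The members, the lists and this rule were chosen with earlier results of these data known. Of 2635 list entries 2468 were measured. Promoter windows and mature microRNAs were read from RefSeq tables, and neighbours from RefSeq gene order. The alternatives, 20 in all, left out arrays or changed the arrays in the fit, the block, the variance model, the filter, the scaling, the probe sets, the size tested or the sex-linked covariate. A few gene groups that were measured are not reported here. Tables were handled with Python 3.11.15, pandas 2.3.3 and NumPy 2.4.6, and plots drawn with matplotlib 3.10.9.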

Additional observations from a re-analysis of the deposited data

How the results depend on the processing

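Of the 265 named genes that were called, 239 were stable as defined with the results. The rule for names took stable genes first, so this share was set by the choice. Over all genes, 400 of the 935 higher and 439 of the 1144 lower calls were stable. None of the 265 changed direction in the alternatives run on single genes. The counts over all genes moved as follows. With only the 4 GM-CSF arrays 549 genes were higher and 658 lower. Leaving out single arrays gave 549 to 880 higher and 550 to 1175 lower genes. A test against a 1.5-fold change left 248 higher and 242 lower, with the same counts at least 2-fold. Over all probe sets 669 were higher and 733 lower, of 35556 tested. Without limma's moderation across genes 0 passed in either direction, at any fold, with 3686 at an unadjusted p under 0.05, against 4632 by limma. Centring arrays on their medians gave 877 higher and 1188 lower, and quantile normalization 1050 and 1089, with all-gene medians of -0.006 and 0.0 beside 0.016. The replicate numbers were not taken to pair the samples: deviations of same-numbered arrays over all genes correlated by 0.024 between GM-BMDC and GM-BMM, and by -0.132 and 0.026 for the pairs with M-BMM, although the numbers of the GM-CSF arrays went together in Y-linked RNA. With the replicate number as a block the counts were 890 higher and 1073 lower, 1835 of them shared with the fit without it. With the block in only the 4 GM-CSF arrays they were 693 and 883. Fits without both GM-CSF arrays of one number keep 1 array of each GM-CSF population. Their counts rest on the spread of the 2 M-BMM arrays alone. Without both GM-CSF arrays numbered 1, the counts over described groups that moved by more than 1.5 times, beside those named with the results, were 9 higher and 1 lower for actin-binding genes, 11 and 4 for adhesion genes, 3 and 3 for actin nucleators, 5 and 3 for regulators of G protein signalling, 2 and 4 for MAP kinase phosphatases, 1 and 4 for G protein subunits, 2 and 2 for kinesins and for Kruppel-like factors, 3 and 4 for bHLH factors and 1 and 2 for clock genes. They were 4 and 3 for the tricarboxylic acid cycle, 3 and 5 for sphingolipid enzymes, 7 and 2 for retinoid and tryptophan enzymes, 2 and 2 for oxidases, 1 and 5 for calcium channels, 1 and 8 for ABC transporters, 1 and 3 for reticulum genes, 0 and 5 for autophagy, 0 and 2 for the proteasome, 2 and 8 for the matrix, 5 and 5 for growth factors, 4 and 1 for S100 and cystatin genes, 2 and 1 for initiation factors, 1 and 1 for mitochondrial ribosomal proteins, 0 and 1 for aminoacyl-tRNA synthetases and for keratins, 2 and 0 for vomeronasal and 14 and 1 for olfactory receptors. Among marker lists they were 2 and 5 for macrophages, 1 and 4 for monocytes, 0 and 0 for neutrophils, 2 and 0 for mast cells, 3 and 0 for eosinophils, 2 and 1 for B lymphocytes, 2 and 1 for plasmacytoid cells and 0 and 2 for endothelium. Centring moved fatty acid enzymes to 5 and 4, sphingolipid enzymes to 2 and 8, the tricarboxylic acid cycle to 1 and 3 and calcium channels to 1 and 8. Quantile normalization moved histone enzymes to 4 and 5, calcium channels to 2 and 4, initiation factors to 6 and 2, aminoacyl-tRNA synthetases to 0 and 1 and microRNAs to 4 and 4. Counts over all probe sets were not made for the gene lists. With 2 arrays a group, small differences can be missed: the simulation found 0% of 1.5-fold changes. It had only 200 changed genes, fewer than were called here, so its rate need not hold for these arrays. Some differences under 1.5-fold were called, such as Mir17 at 1.46-fold, a call that was not stable.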
